A study of Mus musculus and Homo sapiens with 40 samples.

Results

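Enhancers that carry H3K4me1 but no H3K27ac were studied in HPC-7, a mouse hematopoietic progenitor cell line. The regions were chosen by 3 measured properties of ChIP-seq peak lists. A region was an H3K4me1 peak of untreated p42-expressing cells that overlapped an H3K4me1 peak of untreated p30-expressing cells by at least 1 bp. Its summit, the position of highest signal, lay more than 1000 bp from the start site of any protein-coding transcript. It overlapped no peak of any of the 4 H3K27ac lists. Of 134650 H3K4me1 peaks of p42-expressing cells on chromosomes 1 to 19 and X, 104125 (77.3%) were shared with p30-expressing cells and 97230 (72.2%) were also distal from start sites. Of these shared distal peaks, 25338 (26.1%) had no H3K27ac peak in any list. They are called H3K4me1-only regions here. As comparison, 27812 shared distal peaks (28.6%) overlapped H3K27ac in 1 to 3 lists and 44080 (45.3%) in all 4 lists. The last group is called constitutively acetylated here.

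HPC-7 cells carried either the full-length CEBPA isoform p42 or the shorter isoform p30, each fused to ERT2, a modified part of the estrogen receptor. Each line was a transduced population, so the cell line and the isoform cannot be told apart. H3K27ac was measured in 3 samples per group, in both lines, untreated or with LPS at 100 ng/mL for 2 h. H3K4me1 was measured in 2 untreated samples per line. CEBPA was mapped in untreated cells with anti-CEBPA and, through the ERT2 part, with anti-ER, in 1 sample per line and antibody. According to the study's methods, hydroxytamoxifen, which moves ERT2 fusions into the nucleus, was given to such cells before experiments, whereas the sample labels do not name it. H3K27ac and H3K4me1 peaks were called on pooled replicates and CEBPA sites on 1 library each. Hence replicates could not be compared and no test was run. The lists do not give their read depth, and the ranges in parentheses are 95% Wilson intervals, which cover counting error over regions only. All 10 progenitor genes examined, among them Kit, Cd34, Ptprc and Gata2, had H3K27ac at a start site in all 4 lists. None of 10 genes of other cells, among them Pax5, Cd3e and Alb, had it in any list.

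H3K4me1 is placed at enhancers by the methyltransferases KMT2C and KMT2D, often before an enhancer is active. H3K27ac is placed by EP300 and CREBBP and marks active enhancers and promoters. Enhancers with H3K4me1 alone are usually termed primed, and in macrophages such regions can gain H3K27ac upon stimulation. CEBPA is a leucine zipper transcription factor that binds enhancers of myeloid genes, and p30 lacks the N-terminal part of p42.

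Of the H3K4me1-only regions, 133 held a summit of all 4 lists of CEBPA sites. Among the 5 of these with the best sum of ranks over the 4 lists were regions near Irs2, Chd1, Dlx2 and Sik3. The sequences of the last 3 are given here, because they are among the regions where CEBPA occupancy without H3K27ac was strongest. Each line shows 200 bases of GRCm39 (mm39), plus strand, around the summit of the anti-CEBPA site in p42-expressing cells. Capitals mark a CEBP sequence, here any of TTGCGCAA, TTGCGTAA, TTGCACAA and TTGCATAA on either strand.
Chd1 region, chr17:15869756-15869955: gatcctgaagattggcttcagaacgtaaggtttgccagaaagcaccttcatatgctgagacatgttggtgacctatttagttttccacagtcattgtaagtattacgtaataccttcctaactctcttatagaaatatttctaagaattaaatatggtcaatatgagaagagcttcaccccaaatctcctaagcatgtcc
Dlx2 region, chr2:71464003-71464202: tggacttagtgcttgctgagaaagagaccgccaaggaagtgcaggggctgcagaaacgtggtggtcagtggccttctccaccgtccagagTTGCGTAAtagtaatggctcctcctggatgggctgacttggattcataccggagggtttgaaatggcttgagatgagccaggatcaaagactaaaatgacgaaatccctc
Sik3 region, chr9:45981639-45981838: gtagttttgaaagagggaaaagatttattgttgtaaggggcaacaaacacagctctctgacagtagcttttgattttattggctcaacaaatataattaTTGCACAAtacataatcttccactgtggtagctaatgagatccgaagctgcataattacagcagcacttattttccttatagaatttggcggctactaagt

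The CEBP sequence started 10 bases before the CEBPA summit in the Dlx2 region and 1 base before it in the Sik3 region. The region near Chd1 held none of the 4 forms within these 200 bases. None of these 3 windows held another of the sequences searched, which are listed further on.

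The strongest occupancy was near Irs2, which encodes an insulin receptor substrate. The H3K4me1-only region at chr8:10949445-10949991 lay in a non-coding gene, 109949 bp downstream of the Irs2 start site. Its anti-CEBPA site ranked 106 of 47489 in p42- and 26 of 31823 in p30-expressing cells, with fold enrichments over background of 69.1 and 101. With anti-ER its site ranked 78 in both lines, with fold enrichments of 86.9 and 106. Its H3K4me1 fold was 3.52 in p42- and 2.46 in p30-expressing cells, where the medians of H3K4me1-only regions were 3.27 and 3.62. The nearest H3K27ac peak of any list was 884 bp away. Its H3K4me1 peak ranked 56331 of 134650 in the p42 and 138461 of 168028 in the p30 list.

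Near Chd1, which encodes a chromatin remodeler, the region at chr17:15869676-15870351 was intergenic, 55220 bp upstream of the start site and 220 bp from H3K27ac. Its sites had folds of 74.6 (p42, anti-CEBPA), 49.8 (p30, anti-CEBPA), 79.5 (p42, anti-ER) and 96.1 (p30, anti-ER). The sites ranked from 58 (p42, anti-CEBPA) to 225 (p30, anti-CEBPA).

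The region near Dlx2, a homeobox gene of forebrain and craniofacial development, was at chr2:71463707-71464334 and lay 5598 bp from H3K27ac. Its site folds were 17.2 (p42, anti-CEBPA), 44.7 (p30, anti-CEBPA), 27.4 (p42, anti-ER) and 35.9 (p30, anti-ER). Of these 4 regions it alone had a nearest gene with no H3K27ac at a start site in any list. The region near Sik3, which encodes a salt-inducible kinase, was intronic at chr9:45981380-45982081, 274 bp from H3K27ac, with site folds of 46.4, 25.8, 24 and 23.8 in the same order. H3K4me1 folds of these 4 regions ranged from 2.37 to 4.15 in p42- and from 2.46 to 5.28 in p30-expressing cells. Their best rank was 37563 of 134650 in the p42 and 18280 of 168028 in the p30 list.

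H3K4me1-only regions had narrower and weaker H3K4me1 peaks than acetylated regions. Their median width was 310 bp, against 399 bp for regions with H3K27ac in 1 to 3 lists and 650 bp for constitutively acetylated regions. The median H3K4me1 fold over background in p42-expressing cells was 3.27, 3.51 and 4.05 in the same order. In the strongest overlapping peak of p30-expressing cells it was 3.62, 3.92 and 4.52. These values came from the peaks that the choice of regions used, and a wide peak meets an overlap of 1 bp more easily, so they are given as a description. Among H3K4me1-only regions, 3.07% (2.86 to 3.29) were in the top 10% of the p42 list, against 22.1% (21.7 to 22.5) of constitutively acetylated regions. The middle 50% of H3K4me1-only regions had p42 folds from 2.8 to 3.81, and the highest fold was 10.4. Spearman's correlation of the folds in both lines across H3K4me1-only regions was 0.23 (n = 25338 regions of the same 2 pooled lists), against 0.45 across the 44080 constitutively acetylated regions.

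**Figure D1:**
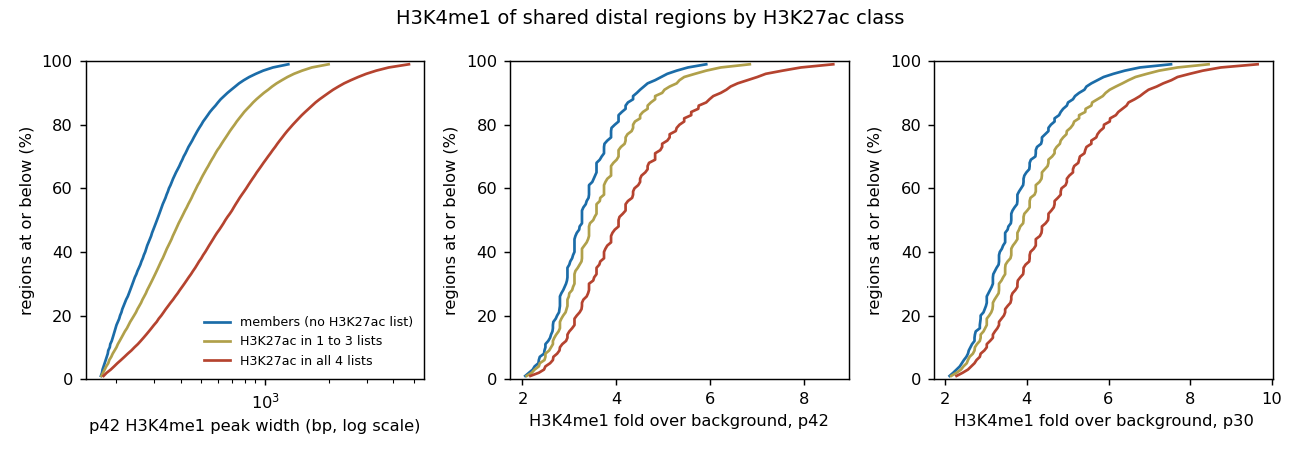
Cumulative curves of H3K4me1 peak width in bp (log axis) and of H3K4me1 fold over background in p42- and p30-expressing cells, from the 1st to the 99th percentile of each class. The y axes give the percentage of regions at or below a value, and H3K4me1-only regions (members, blue) lie to the left of both acetylated classes in each panel, with medians of 310 bp, 3.27 and 3.62.

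The limits of the choice were not marked by a gap in the values. Of the peaks shared by both lines and free of H3K27ac, 972 had a summit within 1000 bp of a start site and were left out. The ones nearest to the limit were 999 bp from the start site of Uox (fold 3.27), 1000 bp from Disp1 (fold 2.95) and 1000 bp from Epb41l3 (fold 3.75). Just inside were regions 1001 bp from Tom1l2 (fold 4.51), 1003 bp from Hsd11b1 (fold 3.36) and 1003 bp from Plxnc1 (fold 2.96). At the H3K27ac limit, 233 H3K4me1-only regions had a H3K27ac peak within 10 bp of their edge. Conversely, 9206 shared distal peaks were left out because of a single H3K27ac list, and in 230 of them (2.5%) the overlap was at most 10 bp.

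Most H3K4me1-only regions lay close to acetylated chromatin. The median gap from the edge of a region to the nearest H3K27ac peak of any list was 765 bp, and the middle 50% of gaps ranged from 300 to 1914 bp. A H3K27ac peak was within 500 bp of 37.8% (37.2 to 38.4), within 1000 bp of 58% (57.4 to 58.6) and within 5000 bp of 91% (90.7 to 91.4). Only 2277 regions (8.99%) were more than 5 kb and 341 (1.35%) more than 20 kb from H3K27ac. By list, the median gap was 1512 bp in untreated and 1840 bp in LPS-treated p42-expressing cells, and 1309 bp and 1170 bp in p30-expressing cells. The order of these medians followed the number of peaks per list, which was 129345 and 107114 in p42- and 139190 and 142385 in p30-expressing cells, so the lists were not compared by it. Regions far from H3K27ac were not stronger in H3K4me1. The median p42 fold was 3.27 up to 1 kb, 3.25 from 1 to 5 kb, 3.11 from 5 to 20 kb and 3.22 beyond 20 kb.

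**Figure D2:**
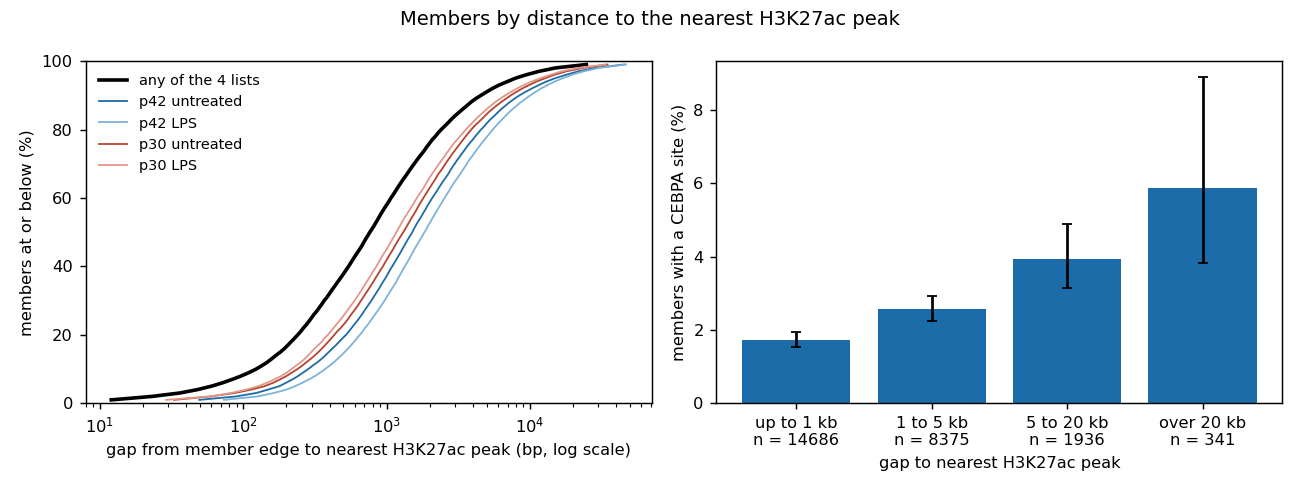
The left panel gives the cumulative percentage of H3K4me1-only regions by the gap in bp to the nearest H3K27ac peak (log axis), for each H3K27ac list and for any of the 4, whose median is 765 bp. The right panel gives the percentage of H3K4me1-only regions with a CEBPA site of any list by that gap, with 95% Wilson intervals, which increases from 1.73% up to 1 kb to 5.87% beyond 20 kb.

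Their positions in the genome also differed from those of acetylated regions. The summit was in an intron of a protein-coding gene in 50.3% of H3K4me1-only regions (49.7 to 50.9), against 65.1% (64.7 to 65.6) of constitutively acetylated and 60.5% of all shared distal regions. It was intergenic in 26.1% (25.6 to 26.7), against 14.2% (13.8 to 14.5) and 18.2%. In a further 20.1% it was only in a non-coding gene, and in 3.51% in a protein-coding exon. The median distance to a protein-coding start site was 17430 bp, compared with 12994 bp for constitutively acetylated regions. More than 100 kb separated 11.3% (11 to 11.7) of H3K4me1-only and 6.79% (6.56 to 7.03) of constitutively acetylated regions from a protein-coding start site. Thus the regions without acetylation were more often intergenic and farther from genes.

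Many H3K4me1-only regions lay near another H3K4me1-only region, which was not compared with the spacing of acetylated regions. When regions up to 5 kb apart were joined, 8996 (35.5%) stood alone and the others formed clusters of up to 21. That largest cluster spanned chr1:156771170-156808724 near Ralgps2, which encodes a guanine nucleotide exchange factor of the Ral GTPases. With joining up to 1 kb, 17016 regions (67.2%) stood alone, and the largest cluster held 10 regions at chr1:127220963-127231772 near Mgat5, which encodes a glycosyltransferase of N-glycan branching. Neighbouring regions are therefore not independent of each other, and the intervals given here do not account for that.

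CEBPA sites were rare in H3K4me1-only regions. A summit of at least 1 of the 4 lists was inside 564 of 25338 regions, which is 2.23% (2.05 to 2.41), against 6.92% of all shared distal regions. The share was 4.56% (4.32 to 4.81) with H3K27ac in 1 to 3 lists and 11.1% (10.8 to 11.4) with H3K27ac in all 4 lists. The choice of regions did not use the CEBPA lists. In p42-expressing cells the anti-CEBPA antibody gave a site in 1.38% (1.24 to 1.53) of H3K4me1-only regions, with 3.84% in all shared distal regions and 5.92% (5.7 to 6.14) in constitutively acetylated regions. In p30-expressing cells these values were 1.01% (0.891 to 1.14), 2.8% and 4.54% (4.35 to 4.74). With anti-ER they were 1.02% (0.902 to 1.15), 3.85% and 6.46% (6.24 to 6.69) in p42-expressing cells, and 1.44% (1.3 to 1.6), 5.41% and 9.1% (8.83 to 9.37) in p30-expressing cells. In each of the 4 lists, the interval of H3K4me1-only regions lay below those of both acetylated groups.

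**Figure D3:**
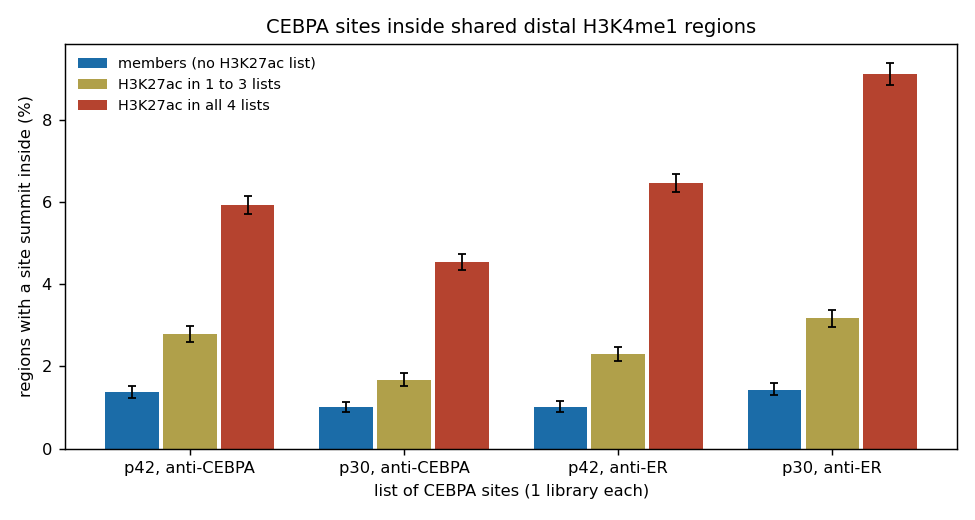
Bars give the percentage of regions with a CEBPA site summit inside the H3K4me1 peak, by list of sites and by H3K27ac class, and error bars are 95% Wilson intervals. H3K4me1-only regions (members, blue) have 1.01% to 1.44% in the 4 lists, lower than both acetylated classes in each list.

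Since narrow peaks have less room for a summit, the shares were also compared within quartiles of peak width. In the narrowest quartile, 168 to 277 bp, a site of any list was in 0.914% (0.749 to 1.11) of H3K4me1-only and 2.05% (1.73 to 2.43) of constitutively acetylated regions. In the quartile of 278 to 443 bp the shares were 1.51% (1.27 to 1.8) and 3.65% (3.26 to 4.08), and in that of 444 to 790 bp they were 3.77% (3.28 to 4.33) and 6.81% (6.37 to 7.29). In the widest quartile, from 791 bp, they were 9.88% (8.49 to 11.5) and 20.3% (19.7 to 20.9). Within quartiles of the p42 H3K4me1 fold, the shares of H3K4me1-only regions rose from 1.43% (1.21 to 1.69) in the lowest to 4.84% (4.01 to 5.84) in the highest, and those of constitutively acetylated regions from 4.5% (4.05 to 5.01) to 18.4% (17.8 to 19). The share of H3K4me1-only regions was thus below that of constitutively acetylated regions in every quartile of width and of fold. The widest quartile reached 21737 bp, whereas H3K4me1-only regions reached at most 3652 bp, so widths within it were not alike. The quartiles of fold were not matched for width. Against regions with H3K27ac in 1 to 3 lists the difference was smaller. Those had 1.09% (0.885 to 1.35) in the narrowest quartile and 2.07% (1.78 to 2.41) in the next, with intervals that overlapped those of H3K4me1-only regions.

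Per length of H3K4me1 peak the difference was smaller. H3K4me1-only regions covered 9.67 Mb and held 36.7 (p42, anti-CEBPA), 26.8 (p30, anti-CEBPA), 27 (p42, anti-ER) and 38 (p30, anti-ER) sites per Mb. Constitutively acetylated regions covered 42 Mb and held 65.2, 49.2, 72 and 102 sites per Mb in the same order. Of all CEBPA sites, only 0.748% to 1.12% per list were inside H3K4me1-only regions.

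CEBPA sites did not gather around the summits of H3K4me1-only regions as they did around those of constitutively acetylated regions. The anti-CEBPA list of p42-expressing cells had 27 site summits per 1000 regions per kb within the first 100 bp and a mean of 46.1 beyond 2500 bp. The anti-ER list of p30-expressing cells had 28.8 and 60.4. Constitutively acetylated regions had 41.9 and 71.8 within the first 100 bp and means of 46.2 and 66.6 beyond 2500 bp. Their value within the first 100 bp was thus below that beyond 2500 bp in p42 anti-CEBPA and above it in p30 anti-ER. At 200 to 300 bp from the summit, where constitutively acetylated regions had their maximum of 123 and 184, H3K4me1-only regions had 44.8 and 44.6. Beyond 2500 bp the density of sites was therefore similar around both kinds of region, whereas within 1 kb it was lower around H3K4me1-only regions. An anti-CEBPA site of p42-expressing cells was within 1000 bp of 7% (6.69 to 7.32) of H3K4me1-only and 16.3% (15.9 to 16.6) of constitutively acetylated summits.

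**Figure D4:**
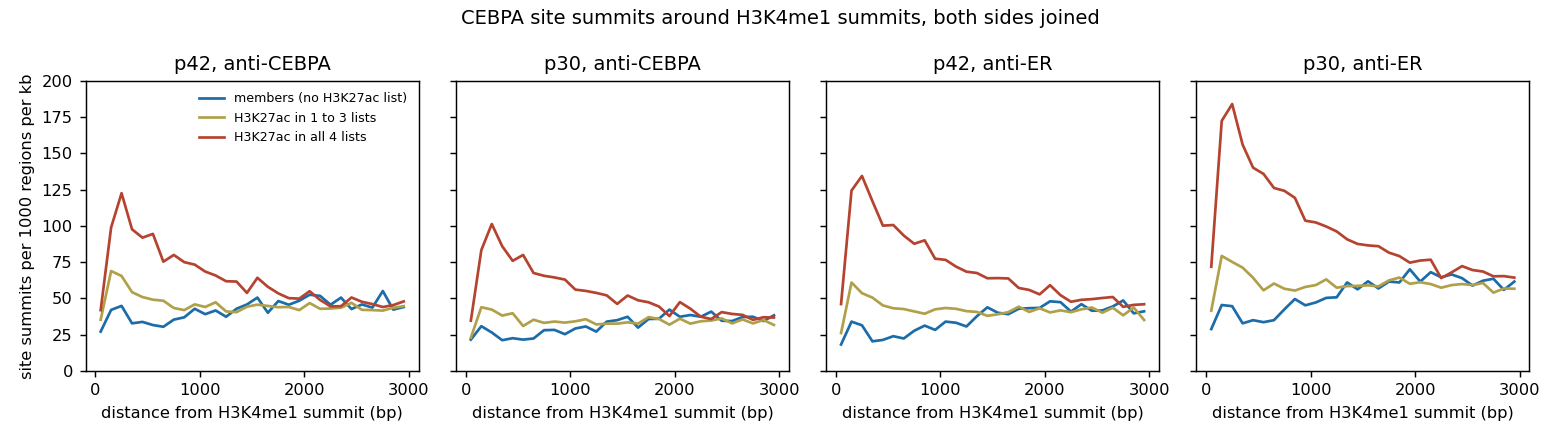
Each panel plots, for 1 list of CEBPA sites, the number of site summits per 1000 regions per kb against the distance in bp from the H3K4me1 summit, in steps of 100 bp with both directions joined. The constitutively acetylated class (red) peaks at 200 to 300 bp, with values from 101 to 184, whereas H3K4me1-only regions (members, blue) have their highest values at 1950 or 2750 bp.

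Among H3K4me1-only regions, those far from acetylation held more CEBPA sites. A site of any list was in 1.73% (1.53 to 1.95) up to 1 kb from H3K27ac, 2.56% (2.24 to 2.92) from 1 to 5 kb, 3.93% (3.15 to 4.89) from 5 to 20 kb and 5.87% (3.83 to 8.89) beyond 20 kb. The last class rests on 20 of 341 regions. The median peak width fell slightly along these classes, from 315 to 277 bp. The distance was measured to the same H3K27ac lists that the choice of regions used, and peaks that overlapped H3K27ac were left out. This order is therefore not free of the choice and is given as a description. All 4 CEBPA lists had the lowest share up to 1 kb, from 0.674% (p42, anti-ER) to 1.11% (p42, anti-CEBPA), and the highest beyond 20 kb, from 2.64% (p30, anti-CEBPA) to 4.99% (p30, anti-ER).

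Anti-CEBPA sites inside H3K4me1-only regions were about as strong as all sites of their lists, and anti-ER sites somewhat weaker. The former had a median fold of 7.72 in p42- and 7.54 in p30-expressing cells, against 7.68 and 7.59 over all sites of these lists. With anti-ER the medians were 6.24 and 6.48, against 7.2 and 6.93, and the median ranks were at 59.9% and 54.5% of the list. The CEBP sequence was found within 200 bp around 28.2% (23.7 to 33.1) of p42 and 30.9% (25.6 to 36.8) of p30 anti-CEBPA summits inside H3K4me1-only regions. At anti-CEBPA sites inside constitutively acetylated regions these shares were 24.4% (22.8 to 26) and 26.7% (24.8 to 28.6), and their intervals overlapped with the former. With anti-ER the shares were 27.6% (22.5 to 33.3) and 26.1% (21.9 to 30.8) inside H3K4me1-only regions, above 20% (18.6 to 21.5) and 16.4% (15.3 to 17.5) in constitutively acetylated regions. Over all sites of a list the share was 30.3% (p42) and 34% (p30) for the CEBPA antibody. It was 28.3% (p42) and 26.1% (p30) for the ER antibody. At anti-ER sites the intervals of both kinds of region lay apart, with the share in H3K4me1-only regions close to that over all sites and the one in constitutively acetylated regions below it.

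Sites were found in both lines or in 1 line only. Of the 564 H3K4me1-only regions with a site, 289 had a site in both lines, 135 only in p42- and 140 only in p30-expressing cells, with either antibody. Among the 4897 constitutively acetylated regions with a site, 2884 had it in both lines, 642 only in p42- and 1371 only in p30-expressing cells. Among all 6728 shared distal regions with a site, these numbers were 3836, 1054 and 1838. Counted by region, a site in both lines was thus less frequent among H3K4me1-only than among constitutively acetylated regions with a site. These counts were not matched for peak width, and a wide peak can hold separate sites of each line. Of the anti-CEBPA sites inside H3K4me1-only regions, 59.2% (54 to 64.1) of those in p42-expressing cells overlapped a site of p30-expressing cells, and 84.2% (79.2 to 88.1) of those in p30-expressing cells overlapped a site of p42-expressing cells. Inside constitutively acetylated regions these shares were 58.7% (56.9 to 60.6) and 77.4% (75.6 to 79.2), and over all sites 55.2% and 82.5%. With anti-ER the shares inside H3K4me1-only regions were 79.3% (74 to 83.8) and 56% (50.9 to 61). Inside constitutively acetylated regions they were 86.4% (85.1 to 87.5) and 60% (58.5 to 61.5). Counted by site, the share in H3K4me1-only regions was thus not lower with anti-CEBPA, and lower with anti-ER, where the p30 intervals overlapped. The lists of both lines differ in length, with 47489 and 31823 sites for anti-CEBPA and 23210 and 33952 for anti-ER. With 1 library per list a site missing from a list cannot be told apart from a site below its threshold.

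The 133 regions with sites of all 4 lists were 0.525% (0.443 to 0.622) of H3K4me1-only regions, against 2.88% (2.73 to 3.04) of constitutively acetylated regions. They were nearest to 123 genes. Their median width was 592 bp, their median p42 H3K4me1 fold was 3.74 and their median gap to H3K27ac was 1528 bp. Within 200 bp around the p42 anti-CEBPA summit, 51 of them (38.3%, 30.5 to 46.8) held the CEBP sequence. Of these 133 regions, 23 lay more than 5 kb from any H3K27ac peak.

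Around the H3K4me1 summit itself, the CEBP sequence was as frequent in H3K4me1-only regions as elsewhere. It was in 3.57% (3.35 to 3.81) of 500 bp windows, against 3.39% of all shared distal regions and 3.31% (3.14 to 3.48) of constitutively acetylated regions. H3K4me1-only windows had less GC (median 43.4%, against 46%), and within quartiles of GC the shares were 4.43% and 4.51%, 3.76% and 3.91%, 2.89% and 2.97%, and 2.34% and 2.38%. Hence the shares of the CEBP sequence differed little between both kinds of region at like GC. The shares with a CEBPA site were not compared at like GC.

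Other sequences were counted in the same windows, on both strands. The PU.1 sequence GAGGAAGT was in 3.98% (3.75 to 4.23) of H3K4me1-only regions, 5.28% of all shared distal regions and 6.36% (6.14 to 6.59) of constitutively acetylated regions. PU.1 is a lineage regulator of myeloid and B cells. This order was also seen in each quartile of GC, from 2.71% (2.39 to 3.07) against 4.45% (4.03 to 4.92) in the lowest to 5.12% (4.48 to 5.84) against 7.56% (7.12 to 8.01) in the highest. The AP-1 sequence TGANTCA, bound by FOS and JUN dimers, was in 14% (13.6 to 14.5), 15% and 15.7% (15.4 to 16.1) in the same order. Its intervals overlapped in the second GC quartile, with 15% (14.1 to 15.8) and 16.3% (15.6 to 17) in H3K4me1-only and constitutively acetylated regions. They also overlapped in the highest, with 13.9% (12.8 to 15) and 14.3% (13.7 to 14.9), and lay apart in the others. The NF-kB sequence was in 0.371% (0.303 to 0.454) and 0.626% (0.557 to 0.704), and the CTCF sequence in 0.111% (0.0765 to 0.16) and 0.227% (0.187 to 0.276). At like GC the NF-kB intervals overlapped in each quartile. The CTCF intervals lay apart only in the lowest GC quartile. In the highest one the CTCF shares were 0.394% (0.242 to 0.638) and 0.327% (0.244 to 0.439).

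For the remaining sequences the intervals of H3K4me1-only and constitutively acetylated regions overlapped over all windows. The RUNX sequence TGTGGTTT was in 4.79% (4.54 to 5.06) and 5.1% (4.9 to 5.31). At like GC its intervals lay apart in the second quartile, with 4.82% (4.33 to 5.35) and 6.02% (5.58 to 6.49). They also lay apart in the highest quartile, with 3.12% (2.63 to 3.7) and 4.11% (3.78 to 4.45), and overlapped in the others. The GATA sequence AGATAAGG was in 2.37% (2.19 to 2.56) and 2.11% (1.98 to 2.25). The E-box CAGATGG of the progenitor factor SCL was in 10.3% (9.98 to 10.7) and 10.9% (10.6 to 11.2). The CRE sequence TGACGTCA was in 0.367% (0.3 to 0.449) and 0.281% (0.236 to 0.335). A match describes letters in the window only and is not a bound site.

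The nearest genes of H3K4me1-only regions were mostly genes with acetylated promoters. Of 25338 regions, 82.3% (81.9 to 82.8) had a nearest protein-coding gene with H3K27ac within 1000 bp of a start site in all 4 lists. This was 87% for all shared distal regions and 90% (89.7 to 90.3) for constitutively acetylated regions, and 51.1% (50.4 to 51.8) of all 21408 protein-coding genes had such a promoter. A nearest gene with no promoter H3K27ac in any list was found for 12.5% (12.1 to 12.9) of H3K4me1-only and 6.69% (6.46 to 6.93) of constitutively acetylated regions. The difference was largest near genes. Up to 10 kb from a start site the promoter was acetylated in all lists for 85.2% (84.5 to 86) and 94.8% (94.5 to 95.1), and over 100 kb from it for 78.2% (76.7 to 79.7) and 76.4% (74.8 to 77.9), with overlapping intervals. Promoters were scored with the same 4 H3K27ac lists that the choice of regions used. Near a start site a single H3K27ac peak can cover both a promoter and a region. The shares and their difference near genes are therefore given as a description. The nearest gene in the genome need not be the one an enhancer acts on.

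H3K4me1-only regions were nearest to 6086 genes, which is 28.4% of protein-coding genes. Of these, 4693 (77.1%) were also nearest to a constitutively acetylated region, 2290 had a single H3K4me1-only region and 604 had 10 or more. Those 604 genes took 42.6% of the regions. Of the 9823 genes nearest to a shared distal region, 800 had only H3K4me1-only regions. A gene with few shared distal regions meets this more easily.

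The gene with the most H3K4me1-only regions was Zfp386, which encodes a zinc finger protein, with 214 of 355 shared distal regions (60.3%). Their median distance from its start site was 512492 bp, and 212 of them lay in the neighbouring immunoglobulin heavy chain locus, whose segments are not annotated as protein-coding. This locus, Igh at chr12:113218450-115973713, held 245 H3K4me1-only regions among 407 shared distal regions (60.2%), or 88.9 per Mb, against 9.63 per Mb over all chromosomes used. It was singled out after its values were seen. Median H3K4me1 folds there were 3.11 (p42) and 3.92 (p30). Of the other antigen receptor loci, Tcrg held 11 of 17 (64.7%, or 63 per Mb), Tcrb 22 of 52 (42.3%, or 33 per Mb), Tcra and Tcrd 13 of 27 (48.1%, or 7.24 per Mb), Igk 0 of 3 and Igl none. A CEBPA site was in 13 of the 245 Igh regions. Since Igh holds many similar gene segments, reads from it may be shared between copies, and its values are uncertain.

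Igh also held 4 of the 5 strongest H3K4me1-only regions by the sum of ranks in both H3K4me1 lists. The strongest, chr12:115125497-115126004, had H3K4me1 folds of 5.17 (p42) and 7.27 (p30). The second, chr12:115719976-115720429, had folds of 10.4 and 11.7, the highest p42 fold of all H3K4me1-only regions. The others in Igh were chr12:115467918-115468262, with folds of 6.87 and 9.29, and chr12:115778995-115779730, with 6.73 and 7.16. The remaining one was intronic in Pak1, which encodes a p21-activated kinase, at chr7:97444705-97446360, 8171 bp downstream of the start site. It had H3K4me1 folds of 10.1 and 7 and lay 1813 bp from H3K27ac. None of these 5 regions held a CEBPA site of any list, and their gaps to H3K27ac ranged from 248 to 2766 bp.

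Jarid2, an accessory factor of Polycomb repressive complex 2, had 76 of 159 shared distal regions without H3K27ac (47.8%). Rreb1, which encodes a zinc finger factor responsive to Ras signaling, had 61 of 149 (40.9%). Runx1, a regulator of hematopoietic stem cells, had 59 of 201 (29.4%), and 108 of its regions were constitutively acetylated, the most of these genes. Cited2, which encodes a partner of EP300 and CREBBP, had 55 of 131 (42%). Jun, which encodes an AP-1 subunit, had 52 of 90 (57.8%), at a median distance of 127206 bp, and 24 constitutively acetylated regions.

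St3gal1, which encodes a sialyltransferase, had 71 of 164 (43.3%). Srgap2, which encodes a GTPase activating protein, had 58 of 99 (58.6%), only 1 of them more than 5 kb from H3K27ac. Asap1, an Arf GTPase activating protein, had 54 of 121 (44.6%), Pde7b, a phosphodiesterase, 52 of 118 (44.1%) and Aopep, an aminopeptidase, 46 of 132 (34.8%). Cxcr4, the receptor that holds progenitors in the bone marrow, had 45 of 84 (53.6%). Dusp6, a phosphatase of ERK, had 44 of 89 (49.4%), of which 12 were more than 5 kb from H3K27ac, and Ppm1h, another phosphatase, had 44 of 86 (51.2%). The predicted gene Gm58497 had 68 of 121 (56.2%). All 15 of these genes had H3K27ac at a start site in all 4 lists, and of their 15 shares all were above the 26.1% of all shared distal regions. Since they were ranked by their number of such regions, this share is a description.

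**Figure D5:**
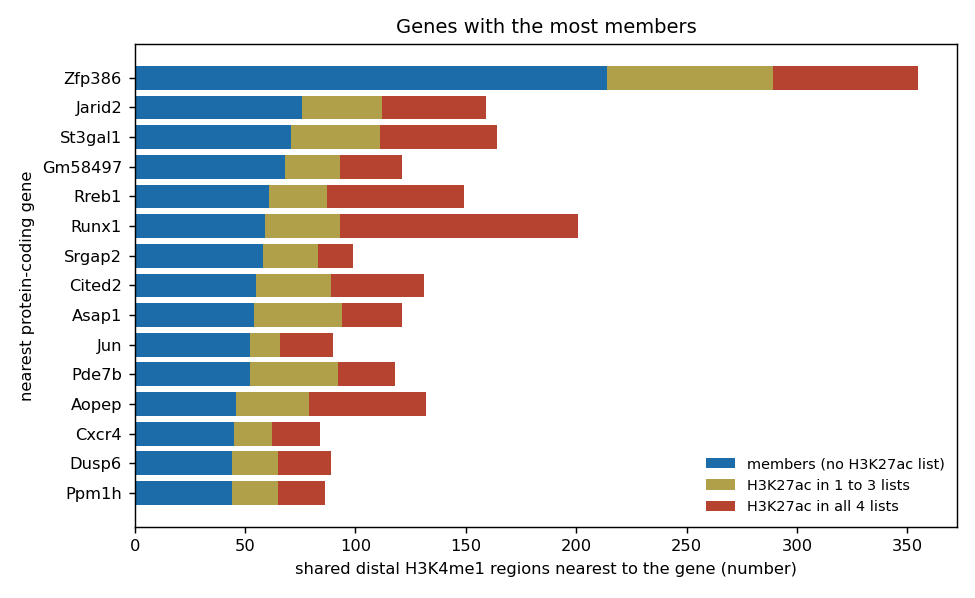
Stacked bars give the number of shared distal H3K4me1 regions nearest to each of the 15 genes with the most H3K4me1-only regions, split by H3K27ac class. Zfp386, next to Igh, has 214 H3K4me1-only regions (members, blue), and the other 14 genes have between 44 and 76.

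Among gene groups, progenitor factors had the fewest H3K4me1-only regions relative to their enhancers. The 16 stem and progenitor factors had 118 of 687 shared distal regions without H3K27ac (17.2%), with 427 constitutively acetylated, against 26.1% for all genes. Of their regions, 59 were at Runx1, whereas Etv6, an ETS repressor, had only 10 of 122 (8.2%) and Hhex, a homeobox factor, had 10 of 16 (62.5%). Enhancers of myeloid fate factors were near the overall share, with 148 of 557 (26.6%). Among them Runx2 had 30 of 118, Id2, an inhibitor of basic helix-loop-helix factors, 29 of 92 and Gfi1, a repressor that favors neutrophils, 19 of 48. The 26 neutrophil and macrophage effectors had 38 of 153 (24.8%), led by Adgre1, which encodes the macrophage antigen F4/80, with 10 of 29, Mrc1, the mannose receptor, with 7 of 23 and Csf1r, the receptor for M-CSF, with 6 of 20. Of the regions of effectors, 26.3% were more than 5 kb from H3K27ac, against 8.99% of all H3K4me1-only regions.

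The 28 inflammatory mediators had 122 of 387 (31.5%). At least 1 such region was nearest to 21 of them (75%), against 28.4% of all genes. This share was 76.5% for myeloid fate factors, 68.8% for stem and progenitor factors and 58.3% for enzymes of the enhancer marks. It was 42.9% for erythroid and megakaryocyte genes, 34.6% for neutrophil and macrophage effectors, 30.8% for T and NK genes and 27.8% for B lymphoid genes. Developmental factors of other tissues had 26.9%, and neuronal adhesion and synapse genes had 25%. The share does not account for the number of shared distal regions per gene. Il6, a cytokine, had 22 of 48 (45.8%), Tnfaip3, an inhibitor of NF-kB signaling, 20 of 68 (29.4%) and Ptgs2, the inducible cyclooxygenase, 12 of 21 (57.1%). All 3 had promoter H3K27ac in all 4 lists, and 1 region of Tnfaip3 and none of Il6 or Ptgs2 held a CEBPA site. Both lymphoid groups had shares above the overall one, with 49 of 131 (37.4%) for B lymphoid and 69 of 193 (35.8%) for T and NK genes. Aff3, a factor of lymphoid nuclei, had 30 of 87, Foxo1, needed in early B cells, 13 of 20 and Blnk, a B cell adaptor, 3 of 7. Satb1, a chromatin organizer of thymocytes, had 28 of 77 and Runx3 17 of 60. Foxo1 had no constitutively acetylated region among its 20, although its promoter was acetylated in all 4 lists, and 3 of its regions held a CEBPA site.

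Erythroid and megakaryocyte genes had 49 of 176 (27.8%), with Car2, a carbonic anhydrase, at 10 of 53 and Gfi1b at 6 of 13. Enzymes of the enhancer marks had 25 of 95 (26.3%), with Crebbp at 6 of 13 and Kmt2c at 5 of 9. Genes of other tissues had few shared distal regions. Neuronal adhesion and synapse genes had 25 of 70 (35.7%), with 3 of 11 at Nrg3 and 1 of 12 at Cntnap2. Most of the 25 were nearest to a single other gene, so this share rests mainly on that gene. Developmental factors of other tissues had 20 of 47 (42.6%), with 8 of 19 at Pax3 and 3 of 3 each at Hnf4a and Nkx2-5. In these 2 lists, 23 of 24 and 22 of 26 genes had no promoter H3K27ac in any list, and 32% and 30% of the regions were more than 5 kb from H3K27ac. Counts per list are small, and regions of a gene are not independent, so no difference between lists was tested.

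Because H3K27ac was also measured with LPS, the regions were set beside those that had H3K27ac only after LPS. Of 30965 shared distal regions without H3K27ac in both untreated lists, 25338 (81.8%) had none after LPS either and 5627 (18.2%, 17.7 to 18.6) had a peak after LPS in at least 1 line. A peak after LPS was present in 1754 of them (5.66%) with p42 and in 4779 (15.4%) with p30, with 906 in both lines. The LPS list of p30-expressing cells was also the longest of all, so this difference cannot be told apart from the length of the lists. Shared distal regions with H3K27ac in 1 list alone numbered 1886 (p42, untreated), 848 (p42, LPS), 2599 (p30, untreated) and 3873 (p30, LPS). Peaks in an untreated list alone were thus also frequent, and a peak only after LPS is not by itself a gain with LPS. A CEBPA site was in 3.04% (2.62 to 3.52) of the regions acetylated only after LPS, against 2.23% (2.05 to 2.41) of H3K4me1-only regions. For the 1754 regions acetylated after LPS in p42-expressing cells this share was 5.36% (4.4 to 6.51), and for the 4779 in p30-expressing cells it was 2.66% (2.24 to 3.15). The AP-1 sequence was in 16% (15.1 to 17) of regions acetylated only after LPS and in 20.2% (17.7 to 22.9) of the 906 acetylated after LPS in both lines, against 14% (13.6 to 14.5) of H3K4me1-only regions. The NF-kB sequence was in 34 of 5627 (0.604%, 0.433 to 0.843), against 0.371% (0.303 to 0.454), with overlapping intervals. Regions acetylated only after LPS were also wider, with a median of 361 bp, against 310 bp.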

How the data were processed

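Peak lists of H3K27ac (4 groups), H3K4me1 (2 groups), anti-CEBPA (2 samples) and anti-ER (2 samples) ChIP-seq of HPC-7 cells were used, with groups taken from the sample labels. A list from human cells was not used here. According to the study's methods, reads were trimmed with Trim Galore (0.6.6 per the labels), aligned with Bowtie2 to mm39, freed of duplicates marked by Picard and called with MACS2 against input. H3K4me1 chromatin was digested with micrococcal nuclease. The lists as deposited by the authors give a fold enrichment over background at the summit (a ratio), the −log10 of the p-value, not used here, and the −log10 of the q-value, down to a q-value of about 0.05, beside the summit position. Model settings of the peak calling may differ between antibodies, so folds were compared between groups of regions only within a list. Ranks were summed over lists of different length only to name regions.

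Regions were selected as described, with the GENCODE annotation of GRCm39 and half-open peak coordinates. A site was inside a region where its summit fell within the H3K4me1 peak. Promoters were 1000 bp on either side of any start site of a protein-coding gene. Sequences were searched in 500 bp around H3K4me1 summits and 200 bp around CEBPA summits. The regions and gene lists were chosen with earlier results of these data known. Named were the 15 genes with most regions, the 3 with most in each gene list, the 5 regions with the best rank sum in the H3K4me1 lists and the 5 with the best rank sum over the 4 CEBPA lists. Igh, Ralgps2, Mgat5 and the genes at the distance limit were named outside this rule. Some genes and a region that the rule picked are not reported here. The rule was checked on simulated peaks, where 972 of 972 planted regions among 4000 were recovered. Scripts ran in Python 3.11.15 (pysam 0.24.0, pandas 2.3.3, numpy 2.4.6, scipy 1.17.1, matplotlib 3.10.9). Alternative thresholds, overlaps, start sites and list lengths are given in the closing section.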

Additional observations from a re-analysis of the deposited data

How the results depend on the processing

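No paired analysis was possible because each histone list pools its replicates and each CEBPA list is 1 library, and for the same reason no replicate could be left out. The number of H3K4me1-only regions, 25338, was within 1.5 times of that value in 8 of 11 alternatives. It was 10652 without H3K27ac within 1000 bp, 8577 with both H3K4me1 lists at a q-value under 1e-05, and 11568 with 50% reciprocal overlap. The share with a CEBPA site (2.23%) was 2.6% when only H3K27ac peaks with a q-value under 1e-05 excluded a region, and 2.91%, 3.31% and 2.44% under the former 3 settings. It was 2.88% from the p30 list, 3.81% with site overlap of 1 bp, 2.92% within 250 bp of the summit, 2.02% with CEBPA q-values under 1e-05 and 1.51% with CEBPA lists of equal length. Constitutively acetylated regions had 8.4% to 19.3% in the 11 settings run for both groups, always above the H3K4me1-only regions of the same setting. The share with a promoter acetylated in all lists (82.3%) was 83.7% with the stricter H3K27ac lists, 78.4% without H3K27ac within 1000 bp, 83% with stricter H3K4me1 lists, 81.2% with only gene 5′ ends as start sites, 82.8% with histone lists of equal length, 80% with promoters of 250 bp and 82.8% within 100 kb. The share with the CEBP sequence (3.57%) was 1.2% in 200 bp and 6.88% in 1000 bp. Leaving out Igh or chromosome 1, added after the data were seen, moved none of the 4 results beyond its interval or the 1.5-fold limit. The depth of the lists is unknown, so absence of a H3K27ac peak means only absence at a q-value of about 0.05.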

Other observations

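H3K4me1-only regions were spread unevenly over the chromosomes. On chromosome 1 they made up 3160 of 9703 shared distal regions (32.6%, 31.6 to 33.5), and on each other chromosome between 22.2% (chromosome 11) and 28% (chromosome 3). Chromosome 1 had 49.7 shared distal regions per Mb and 52.1 H3K27ac peaks per Mb in untreated p42-expressing cells, and their ratio was higher than on any other chromosome. The median p42 H3K4me1 fold of its shared distal regions was 3.48, against 3.63 over all chromosomes. Chromosome X held 91 H3K4me1-only regions among 362 shared distal regions, or 2.14 shared distal regions per Mb.

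The widest H3K4me1-only region, singled out after its values were seen, was at chr14:3050233-3053884, close to the start of the assembled chromosome, 523605 bp upstream of Ube2e2, which encodes a ubiquitin-conjugating enzyme. It ranked 7 in the p42 H3K4me1 list with a fold of only 2.18, and 7858 in the p30 list with a fold of 1.6. Its anti-ER sites ranked 4 and 5 with folds of 3.5 and 3.94, and its anti-CEBPA sites ranked 4392 and 6309 with folds of 2.52 and 2.09. No H3K27ac peak was within 1083649 bp.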
